A study of Arabidopsis thaliana with 18 samples.

Results

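The circadian clock and its evening-phased genes were followed through 10 Arabidopsis thaliana loci. The 7 evening genes were FKF1 (AT1G68050), GI (AT1G22770), TOC1 (AT5G61380), PRR5 (AT5G24470), ELF4 (AT2G40080), JMJD5 (AT3G20810) and AT4G33980, the daytime gene was PRR7 (AT5G02810), and the 2 morning genes were CCA1 (AT2G46830) and LHY (AT1G01060). All 10 were found by locus identifier among the 33602 genes of a raw count table and among the 33201 loci of a Cufflinks table, and all 10 passed the filter on low counts in both. The set was chosen by name with measured values in view: FKF1 was known to be higher in the double knockout libraries AtBD than in the wild type AtWT. Which values, if any, selected the other 9 genes is not recorded. The AtBD against AtWT values of these genes are therefore a description, and nothing is read from calls in that contrast.

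Developing seeds of wild type Col-0 and of a line with T-DNA insertions in BADC1 and BADC3, negative regulators of plastid acetyl-CoA carboxylase, were compared, with 3 libraries in each of 6 groups. COL0 (wild type) and badc-tdna13 (badc1/badc3 double knockout) form the first set of libraries. AtWT (wild type), AtBD (badc1/badc3 double knockout), AtWTtr (labelled wild type) and AtBDtr (labelled double knockout) form the second set. All plants grew under a 16 h day of 100 to 150 µmol photons per square metre per second, at 21 to 23 °C by day and 18 to 20 °C at night. Seeds of the groups without tr in their names were taken 9 to 10 days after flowering, and no age is given for the tr groups.

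The labels do not spell out tr. The study's design describes ribosome-associated RNA from plants that carry HF-RPL18, a tagged ribosomal protein under the soybean glycinin promoter, a promoter active in the filling embryo. Such a construct would leave AtWTtr and AtBDtr with a transgene that AtWT and AtBD lack, and with RNA drawn mainly from the cells in which the promoter is active. The time of day of harvest is not given for any library, and nothing says whether the 3 libraries of a group came from separate plants, so p-values measure the spread between these libraries, which may be technical.

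The plant clock is a loop of repressors that act in turn through the day. The MYB factors CCA1 and LHY peak near dawn and repress evening genes by binding a short promoter sequence called the evening element. PRR7, PRR5 and TOC1, pseudo-response regulators, follow in sequence and repress CCA1 and LHY, and ELF4 acts at dusk in the evening complex with ELF3 and LUX. GI and the blue-light receptor FKF1 pair in late afternoon and lead to the destruction of CDF repressors, which lets CONSTANS switch on FT in long days. JMJD5 is an evening-expressed jumonji-domain protein of the clock. AT4G33980 is annotated in RefSeq as an uncharacterized protein, and no role is given to it here.

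Promoter sequence shows which of the genes carry the element through which CCA1 and LHY act. The 500 bases upstream of each gene start in the RefSeq annotation of the TAIR10.1 genome were searched on both strands for the evening element (AAAATATCT), the CCA1 binding site (AAAAATCT) and the G-box (CACGTG). Of 27443 protein-coding nuclear genes, 4.44% held an evening element, 12.5% a CCA1 binding site and 9.35% a G-box in that window. FKF1 held 2 evening elements, TOC1 1 and PRR5 2, and none of these overlapped another searched motif. GI, ELF4 and JMJD5 held none of the 3 motifs in the window. PRR5, AT4G33980 and LHY each held 1 CCA1 binding site, and PRR7, CCA1 and LHY each held 1 G-box. A match describes letters only, and its absence says nothing of a factor's binding elsewhere.

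The 5 windows of 69 bases around the evening elements are shown because they let the copies in 3 of the evening genes be compared, read 5′ to 3′ on each gene's own strand. The FKF1 windows lie at chr1:25508236-25508304 and chr1:25508423-25508491 on the plus strand, the TOC1 window at chr5:24674782-24674850 on the plus strand, and the PRR5 windows at chr5:8358800-8358868 and chr5:8358695-8358763 on the minus strand. Capitals mark the motifs, with AGATATTTT being the evening element read on the other strand and AGATTTTT in PRR5 the CCA1 binding site read on the other strand.
FKF1 distal window: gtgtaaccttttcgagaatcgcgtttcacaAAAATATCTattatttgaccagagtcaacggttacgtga
FKF1 proximal window: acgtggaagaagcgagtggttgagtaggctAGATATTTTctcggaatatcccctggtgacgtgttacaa
TOC1 window: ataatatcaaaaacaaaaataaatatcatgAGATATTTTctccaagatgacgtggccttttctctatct
PRR5 distal window: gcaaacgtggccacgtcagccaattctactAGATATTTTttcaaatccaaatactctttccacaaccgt
PRR5 proximal window: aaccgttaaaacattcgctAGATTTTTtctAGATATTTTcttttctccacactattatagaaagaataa
Of the 5 evening elements, only the one 373 bases upstream of the FKF1 start read AAAATATCT on the gene's own strand, and the other 4 read on the opposite strand, 151 to 292 bases upstream.

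Library totals ran from 16977673 to 32547007 reads on genes in the second set and from 9546528 to 11574156 fragments in the first. BADC3 checked the genotype labels: its CPM (reads scaled by library total and scaling factor) was 65.6 to 98.9 in AtWT and AtWTtr and 0.08 to 0.70 in AtBD and AtBDtr. In the first set 1 library did not match its label. Replicate 2 of COL0 and replicate 2 of badc-tdna13 held the same fragment number at all 17287 loci compared, and their deposited BADC3 values were 42.1 and 42.0 FPKM (fragments scaled by transcript length and library total), against 4.0 and 2.16 in the other badc-tdna13 libraries. First-set tests therefore used the other 4 libraries. The tr libraries also differed in make-up: the scaling factors that put libraries on a common level were 1.18 to 1.52 in AtWT and AtBD and 0.64 to 0.92 in the tr groups. With library totals as the only scaling, the median log2 fold change over all genes moved from -0.04 to -0.99 for AtWTtr against AtWT and from -0.03 to -0.73 for AtBDtr against AtBD, so tr calls below are set beside those under library totals alone. AtWTtr replicate 3 stood apart from its group for most evening genes. The counts do not use strand, so reads from the 21 bases that FKF1 shares with AT1G68060 on the other strand cannot be told apart.

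Per length of transcript, the morning genes stood near the top of the 10 in AtWT and at the bottom in the tr groups. In AtWT, CCA1 had the highest mean, at 6.30 ± 1.2 RPKM (the CPM above divided by transcript length in kilobases; SD, n = 3), followed by ELF4 at 4.17 ± 1.0, GI at 4.0 ± 0.86 and LHY at 3.99 ± 0.75. PRR7 followed at 3.45 ± 1.5, TOC1 at 2.59 ± 0.65, PRR5 at 2.52 ± 0.39, FKF1 at 1.59 ± 0.51, JMJD5 at 1.28 ± 0.19 and AT4G33980 at 1.0 ± 0.13. Neighbours from ELF4 down to PRR5 lay within their spread of each other.

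In AtBD the order by RPKM was led by ELF4 at 13.7 ± 3.3, then PRR5 at 6.31 ± 0.51, FKF1 at 6.06 ± 0.50, GI at 5.20 ± 0.84 and CCA1 at 5.08 ± 0.26, and LHY came last at 2.68 ± 0.37. In AtWTtr, ELF4 at 32.8 ± 23 RPKM led and CCA1 and LHY closed the order at 4.01 ± 1.7 and 3.03 ± 2.0. In AtBDtr, ELF4 stood at 54.9 ± 22 RPKM, JMJD5, FKF1 and AT4G33980 followed at 12.1 ± 5.4, 11.8 ± 1.8 and 11.1 ± 3.5, and CCA1 and LHY came last at 2.68 ± 1.6 and 2.27 ± 1.6. The means of JMJD5, FKF1 and AT4G33980 in AtBDtr, and of CCA1 and LHY there, differed by less than their spread.

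**Figure D1:**
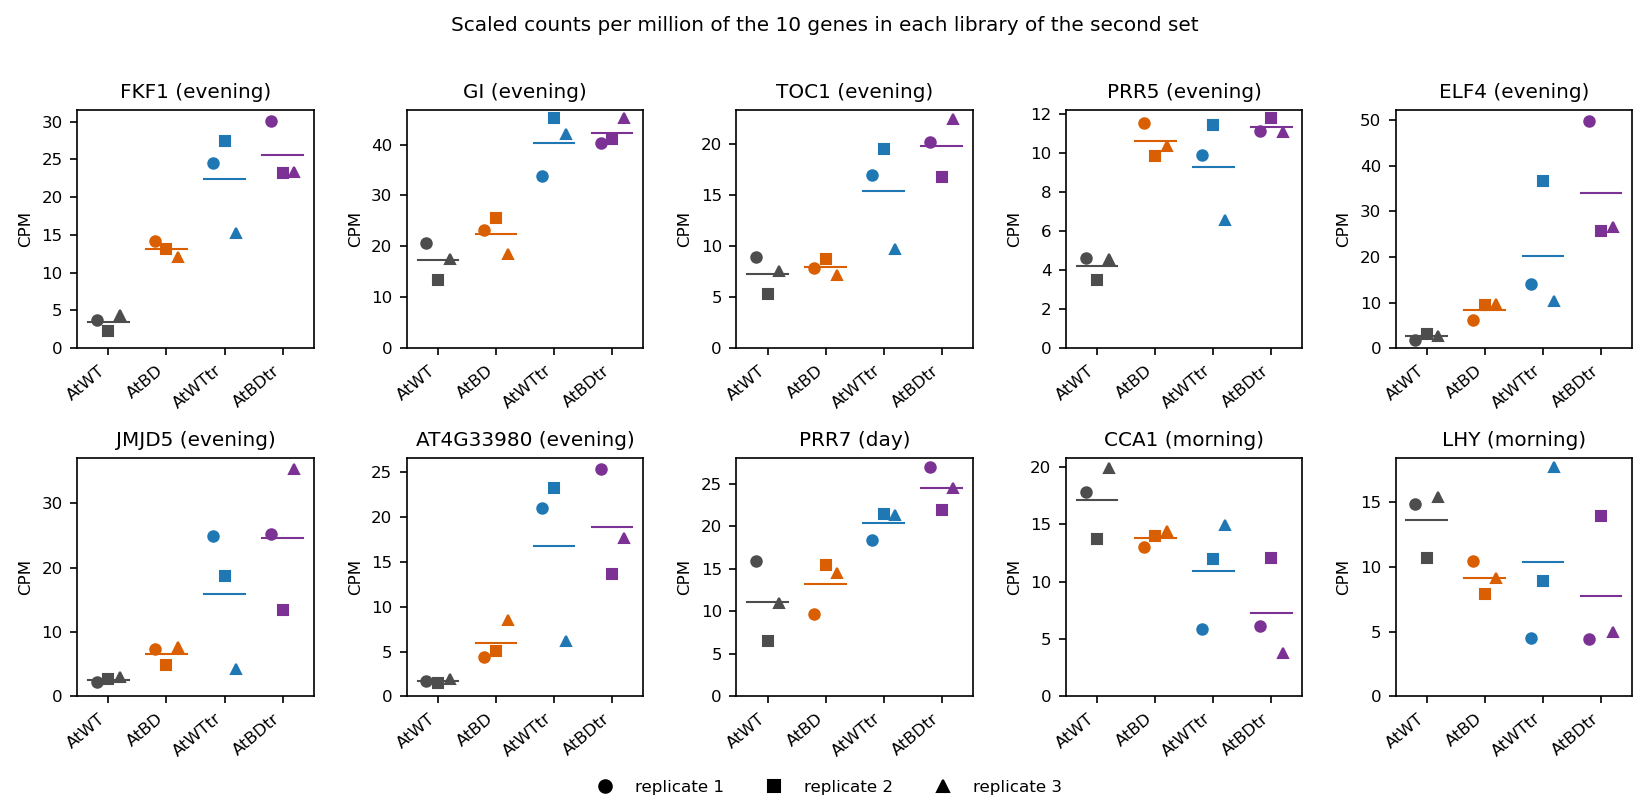
Scaled CPM of the 10 genes (vertical axes, each from 0) in the 4 groups of the second set, with 1 marker per library and a line at the group mean. FKF1 lay between 2.24 and 4.39 CPM in AtWT, between 12 and 14.2 in AtBD and at 15.2 or above in every tr library, while LHY and CCA1 spread widely in both tr groups.

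All 7 evening genes rose in AtWTtr against AtWT, as did PRR7, and neither morning gene passed the test. The 4 largest differences, in AT4G33980, ELF4, FKF1 and JMJD5, were also past the threshold without scaling factors, and those of GI, TOC1, PRR5 and PRR7 were not. Tests were edgeR's quasi-likelihood test with Benjamini-Hochberg adjustment over 19376 genes, with a threshold of 0.05. The 8 of 10 genes called, all higher, stand beside 15.1% of all tested genes called higher and 34.2% called in either direction. The AtWT libraries also entered the contrast known when the genes were chosen, so this count is a description. Whether genes low in AtWT were favoured by the choice was not tested. AtWT and AtWTtr did not overlap for these 8 genes, with 0 of the 10 lower without overlap, beside 48.6% of all genes in either direction.

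FKF1, the blue-light receptor, measured 3.70, 2.24 and 4.39 CPM in the 3 AtWT libraries and 24.5, 27.5 and 15.2 in AtWTtr. Its log2 fold change was 2.70 (SE 0.28, adjusted p = 4.91e-06 by edgeR) and 1.76 with library totals alone (adjusted p = 0.000495). The FKF1 libraries of AtWT are those that entered the contrast it was chosen by.

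GI, the large nuclear partner of FKF1, measured 20.7, 13.4 and 17.6 CPM in AtWT and 33.8, 45.1 and 42.2 in AtWTtr, a log2 difference of 1.23 (SE 0.20, adjusted p = 3.11e-04 by edgeR). The groups did not overlap, and with library totals alone the GI value was 0.25 (adjusted p = 0.397).

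Among the repressors of CCA1 and LHY, TOC1 measured 8.95, 5.32 and 7.54 CPM in AtWT and 17.0, 19.6 and 9.72 in AtWTtr, a log2 difference of 1.08 (SE 0.27, adjusted p = 0.00637 by edgeR). PRR5 measured 4.63, 3.49 and 4.58 CPM in AtWT and 9.91, 11.4 and 6.57 in AtWTtr, with 1.14 (SE 0.24, adjusted p = 0.00228 by edgeR). For both, AtWTtr replicate 3 was the lowest of its group and lay close above AtWT. PRR7 measured 16.0, 6.50 and 11 CPM in AtWT and 18.4, 21.5 and 21.3 in AtWTtr, a log2 difference of 0.87 (SE 0.28, adjusted p = 0.026 by edgeR). With library totals alone the log2 values were 0.15 for TOC1, 0.20 for PRR5 and -0.11 for PRR7, none past the threshold. PRR7 also lost its call in the fit of these 6 libraries alone (adjusted p = 0.0543) and without AtWT replicate 2 (0.0897), AtWT replicate 3 (0.0749), AtWTtr replicate 2 (0.062) or AtWTtr replicate 3 (0.0681), all by edgeR.

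ELF4, the evening complex subunit, measured 1.89, 3.11 and 2.75 CPM in AtWT and 14.0, 36.7 and 10.3 in AtWTtr. The log2 difference was 2.98 (SE 0.44, adjusted p = 1.11e-04 by edgeR), and 2.05 with library totals alone. All 3 AtWTtr libraries stood well above AtWT, with replicate 2 the highest. JMJD5 measured 2.20, 2.68 and 2.96 CPM in AtWT and 24.9, 18.7 and 4.27 in AtWTtr, a log2 difference of 2.61 (SE 0.50, adjusted p = 9.13e-04 by edgeR) and 1.75 with library totals alone. AT4G33980 measured 1.76, 1.46 and 1.89 CPM in AtWT and 21.1, 23.2 and 6.15 in AtWTtr, with 3.30 (SE 0.44, adjusted p = 4.87e-05 by edgeR) and 2.40 with library totals alone. In JMJD5 and AT4G33980, AtWTtr replicate 3 lay far below the other AtWTtr libraries, yet above every AtWT library.

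CCA1 measured 17.8, 13.7 and 19.9 CPM in AtWT and 5.88, 11.9 and 15 in AtWTtr. LHY measured 14.9, 10.7 and 15.4 in AtWT and 4.51, 8.92 and 17.7 in AtWTtr. The groups overlapped for both, and the log2 fold changes were -0.65 (SE 0.37, adjusted p = 0.189) for CCA1 and -0.40 (SE 0.44, adjusted p = 0.526) for LHY by edgeR. With library totals alone they were -1.67 (adjusted p = 7.90e-04) and -1.44 (adjusted p = 0.00785), so the call on the morning genes turned on the scaling.

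Tissue markers moved with the same contrast. The summed CPM of 6 embryo markers was 65275 to 84577 in AtWT and 257555 to 468249 in AtWTtr. That of 8 seed coat markers was 649 to 992 in AtWT and 43.8 to 71.9 in AtWTtr, that of 7 endosperm markers 23.3 to 25.4 and 0.64 to 1.23, and that of 5 silique wall markers 58.6 to 74.1 and 8.15 to 10.1. Of the markers tested, 5 of 6 embryo markers rose and LEC1 fell, and 7 of 7 seed coat, 2 of 3 endosperm and 4 of 5 silique wall markers fell. MINI3 was at 0 in every library of both groups, and PHE1 and TT12 were at 0 in every AtWTtr library. In bulk tissue fewer cells of a type and less RNA per cell cannot be told apart, and the part of these shifts in the clock gene differences was not tested.

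In the double knockout ELF4, JMJD5, AT4G33980, TOC1, FKF1, GI and PRR7 rose in AtBDtr against AtBD, and PRR5, CCA1 and LHY did not pass the test. These were 7 of 10 called, all higher, beside 12.8% of all genes called higher and 29.7% called in either direction. For 8 of the 10, the 7 called and CCA1, the groups did not overlap, beside 47% of all genes. The AtBD libraries also entered the contrast known when the genes were chosen, so these counts are a description. With library totals alone, 2 were called: ELF4 higher, at 1.25 (adjusted p = 0.0275), and CCA1 lower, at -1.71 (adjusted p = 0.00103), both by edgeR. The other 6 genes lost their calls there, with JMJD5 at 1.24 (adjusted p = 0.0804), AT4G33980 at 0.93, TOC1 at 0.63, FKF1 at 0.24, GI at 0.22 and PRR7 at 0.17.

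ELF4 measured 6.11, 9.50 and 9.80 CPM in AtBD and 49.7, 25.7 and 26.5 in AtBDtr, a log2 difference of 2.0 (SE 0.42, adjusted p = 0.00222 by edgeR). JMJD5 measured 7.38, 4.91 and 7.71 CPM in AtBD and 25.2, 13.4 and 35.3 in AtBDtr, with 1.89 (SE 0.48, adjusted p = 0.00795 by edgeR). Each AtBDtr library exceeded each AtBD library for both genes, and replicate 2 was the lowest of AtBDtr. AT4G33980 measured 4.34, 5.11 and 8.49 CPM in AtBD and 25.3, 13.7 and 17.7 in AtBDtr, with 1.66 (SE 0.41, adjusted p = 0.00686 by edgeR). TOC1 measured 7.84, 8.75 and 7.23 CPM in AtBD and 20.3, 16.8 and 22.5 in AtBDtr, with 1.32 (SE 0.27, adjusted p = 0.00212 by edgeR).

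FKF1 measured 14.2, 13.2 and 12 CPM in AtBD and 30.1, 23.3 and 23.4 in AtBDtr, a log2 difference of 0.96 (SE 0.26, adjusted p = 0.0126 by edgeR). GI measured 23.2, 25.5 and 18.4 CPM in AtBD and 40.4, 41.1 and 45.1 in AtBDtr, with 0.91 (SE 0.20, adjusted p = 0.00337 by edgeR). Both were tight within each group, with no overlap. PRR7 measured 9.65, 15.4 and 14.6 CPM in AtBD and 27.0, 21.9 and 24.6 in AtBDtr, with 0.89 (SE 0.28, adjusted p = 0.0261 by edgeR). The PRR7 call was lost without AtBD replicate 1 (adjusted p = 0.117), AtBDtr replicate 1 (0.0772) or AtBDtr replicate 3 (0.0541), and that of FKF1 without AtBDtr replicate 1 (0.0506).

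PRR5 measured 11.5, 9.85 and 10.4 CPM in AtBD and 11.1, 11.8 and 11.1 in AtBDtr, and its log2 fold change of 0.10 (adjusted p = 0.792 by edgeR) became -0.62 with library totals alone. The PRR5 groups overlapped. CCA1 measured 13.0, 14.0 and 14.4 CPM in AtBD and 6.10, 12.1 and 3.75 in AtBDtr, and LHY measured 10.4, 7.92 and 9.15 in AtBD and 4.46, 13.9 and 4.96 in AtBDtr. AtBDtr replicate 2 was the highest AtBDtr library for both morning genes. The log2 fold changes were -0.92 (SE 0.38, adjusted p = 0.0782) for CCA1 and -0.23 (adjusted p = 0.735) for LHY by edgeR. Without AtBDtr replicate 2 the LHY value was -0.98, without a call, and the CCA1 value was -1.52 (adjusted p = 0.00933), and CCA1 was also called by DESeq2 (0.0473), with low counts left unfiltered (0.0291) and without AtWTtr replicate 1 (0.0394). The embryo, seed coat, endosperm and silique wall sums were 99494 to 133018, 294 to 542, 7.14 to 11.9 and 44.0 to 64.2 CPM in AtBD and 243387 to 419516, 41.4 to 71.3, 1.54 to 1.64 and 8.76 to 9.81 in AtBDtr, and their part was not tested.

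**Figure D2:**
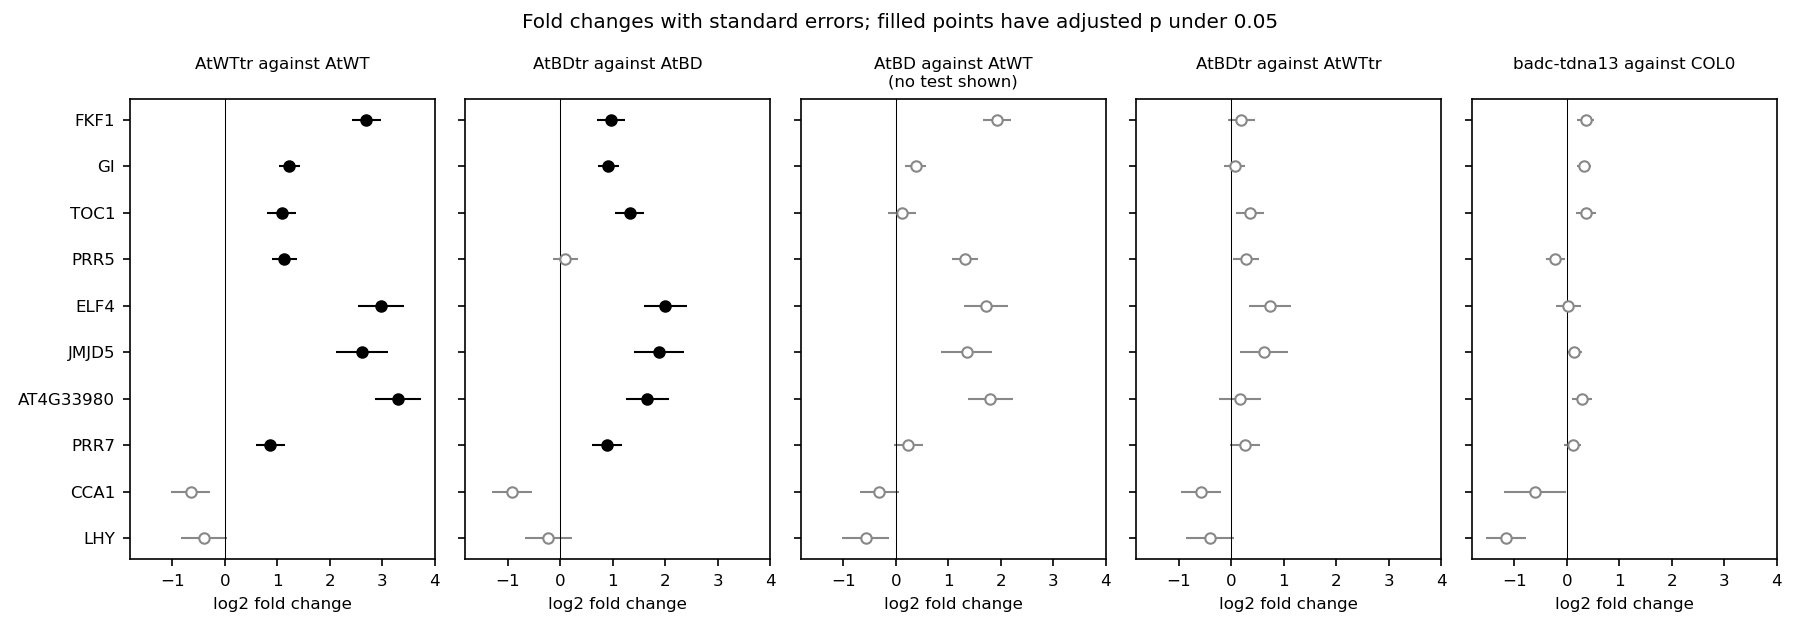
Log2 fold changes (horizontal axes) with standard errors of the 10 genes in 5 comparisons; filled points have an adjusted p under 0.05 by edgeR, and the AtBD against AtWT panel is drawn without a test. Values of 8 genes are filled in AtWTtr against AtWT and of 7 in AtBDtr against AtBD, and no point is filled in the AtBDtr against AtWTtr and badc-tdna13 against COL0 panels.

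Between the genotypes in the libraries without tr, 5 of the evening genes were higher in AtBD than in AtWT with no overlap of the libraries, and LHY was lower. The CPM ranges were 12 to 14.2 against 2.24 to 4.39 for FKF1, 9.85 to 11.5 against 3.49 to 4.63 for PRR5, 6.11 to 9.80 against 1.89 to 3.11 for ELF4, 4.91 to 7.71 against 2.20 to 2.96 for JMJD5 and 4.34 to 8.49 against 1.46 to 1.89 for AT4G33980. Their log2 fold changes were 1.93 (SE 0.27) for FKF1, 1.32 (SE 0.24) for PRR5, 1.72 (SE 0.43) for ELF4, 1.35 (SE 0.48) for JMJD5 and 1.80 (SE 0.43) for AT4G33980. GI at 0.38, TOC1 at 0.13 and PRR7 at 0.24 overlapped between the genotypes. LHY ranged from 7.92 to 10.4 CPM in AtBD and from 10.7 to 15.4 in AtWT (log2 fold change -0.57), and CCA1 from 13.0 to 14.4 and from 13.7 to 19.9 (-0.31).

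In this contrast 1 of the 10 genes was called, FKF1, beside 0.0568% of all genes, and 6 of 10 did not overlap, beside 19.7% of all genes. Because this contrast entered the choice of the genes, nothing is read from these counts or from those of other fits. The count was 5 in the fit of these 6 libraries alone and 4 by DESeq2, and FKF1 was not called without AtBD replicate 1, AtBD replicate 2, AtWT replicate 1 or AtWT replicate 2. None of 21 tested markers was called in this contrast, the lowest adjusted p being 0.386 by edgeR, while their sums differed. The seed coat sum was 294 to 542 CPM in AtBD against 649 to 992 in AtWT, the endosperm sum 7.14 to 11.9 against 23.3 to 25.4, and the embryo sum 99494 to 133018 against 65275 to 84577, and the silique wall sums overlapped at 44.0 to 64.2 against 58.6 to 74.1. TT12 and AGL62 were at 0 in every AtBD library. The part of these differences was not tested.

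In the tr libraries no gene of the 10 passed the test between genotypes. By edgeR 0 of 10 were called in AtBDtr against AtWTtr, with 0 at an unadjusted p under 0.05 and 0 by DESeq2, beside 0.0413% of all genes called. PRR7 was the gene of the 10 whose libraries did not overlap, at 21.9 to 27.0 CPM in AtBDtr and 18.4 to 21.5 in AtWTtr, beside 7.19% of all genes. Log2 fold changes ran from -0.58 (SE 0.38) for CCA1 to 0.74 (SE 0.40) for ELF4. FKF1 was at 0.19 (SE 0.26) there, against the 1.93 (SE 0.27) between AtBD and AtWT. Since FKF1 was known to be higher in AtBD when it was chosen, these values are a description and nothing is read from their difference.

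Whether the genotype difference itself changed with tr was tested as an interaction, in which 0 genes of 19376 were called (0%), with 805 at an unadjusted p under 0.05 and 0 called by DESeq2. Of the 10 genes, 3 had an unadjusted p under 0.05. These were FKF1 at -1.74 (SE 0.38), AT4G33980 at -1.64 (SE 0.58) and PRR5 at -1.04 (SE 0.34) on the log2 scale, each with an adjusted p of 1.0 by edgeR. The interaction holds the AtBD against AtWT contrast known when the genes were chosen, so these 3 values are a description and nothing is read from their p-values.

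The balance of evening against morning genes set the libraries in an order. Each gene's log2 CPM was centred on its mean over the libraries of its set, and the mean of CCA1 and LHY was subtracted from the mean of the 7 evening genes in each library. The difference was -2.04, -1.87 and -2.04 in the 3 AtWT libraries and -0.45, -0.27 and -0.31 in AtBD. It was 1.77, 1.08 and -0.80 in AtWTtr and 2.19, 0.43 and 2.32 in AtBDtr. AtWT and AtBD were each narrow and did not overlap, and both tr groups were wide. The genes were chosen with AtBD against AtWT values in view, so the gap between these groups is a description and nothing is read from it.

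The wide tr groups were split in the same way by evening and morning genes. In AtWTtr replicate 3 the evening mean was -0.13, against 0.80 and 1.10 in the other AtWTtr libraries, and its morning mean was 0.67, against -0.97 and 0.02. In AtBDtr replicate 2 the evening mean was 0.77, against 1.24 and 1.10, and the morning mean 0.34, against -0.95 and -1.22. In each case the library with the lowest evening mean of its group held the highest morning mean. AtWTtr replicate 3 and AtBDtr replicate 2 also had the highest embryo marker sums of their groups, at 468249 and 419516 CPM. Their scaling factors, 0.64 and 0.67, were the lowest of their groups. AtBDtr replicate 1 was close to replicate 2 in both, at 379560 CPM and a factor of 0.68, but had the highest evening mean of its group. The part of library make-up in this split was not tested. The group means were -1.99 ± 0.098 in AtWT, -0.34 ± 0.094 in AtBD, 0.68 ± 1.3 in AtWTtr and 1.65 ± 1.1 in AtBDtr (SD, n = 3). Between the tr genotypes the difference of 0.96 was smaller than the spread within either group. It depended on the libraries kept: it was 0.22 without AtWTtr replicate 3, the lowest of its group at -0.80. It was larger than 0.96 without AtBDtr replicate 2, the lowest of its group at 0.43.

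Single genes differed in how much they took part in that spread. In AtWTtr the SD of log2 CPM was 1.35 for JMJD5, larger than that of 90.3% of tested genes, 1.06 for AT4G33980, 0.98 for LHY and 0.95 for ELF4, where the median gene had 0.41. GI at 0.22 and PRR7 at 0.13 were steady, the latter with a smaller SD than all but 9.81% of genes. In AtBDtr, LHY and CCA1 had SDs of 0.90 and 0.84, JMJD5 of 0.71 and GI of 0.09, and the median gene had 0.37. In AtBD the SDs of FKF1, PRR5 and CCA1 were 0.12, 0.11 and 0.07, against a median gene of 0.28.

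**Figure D3:**
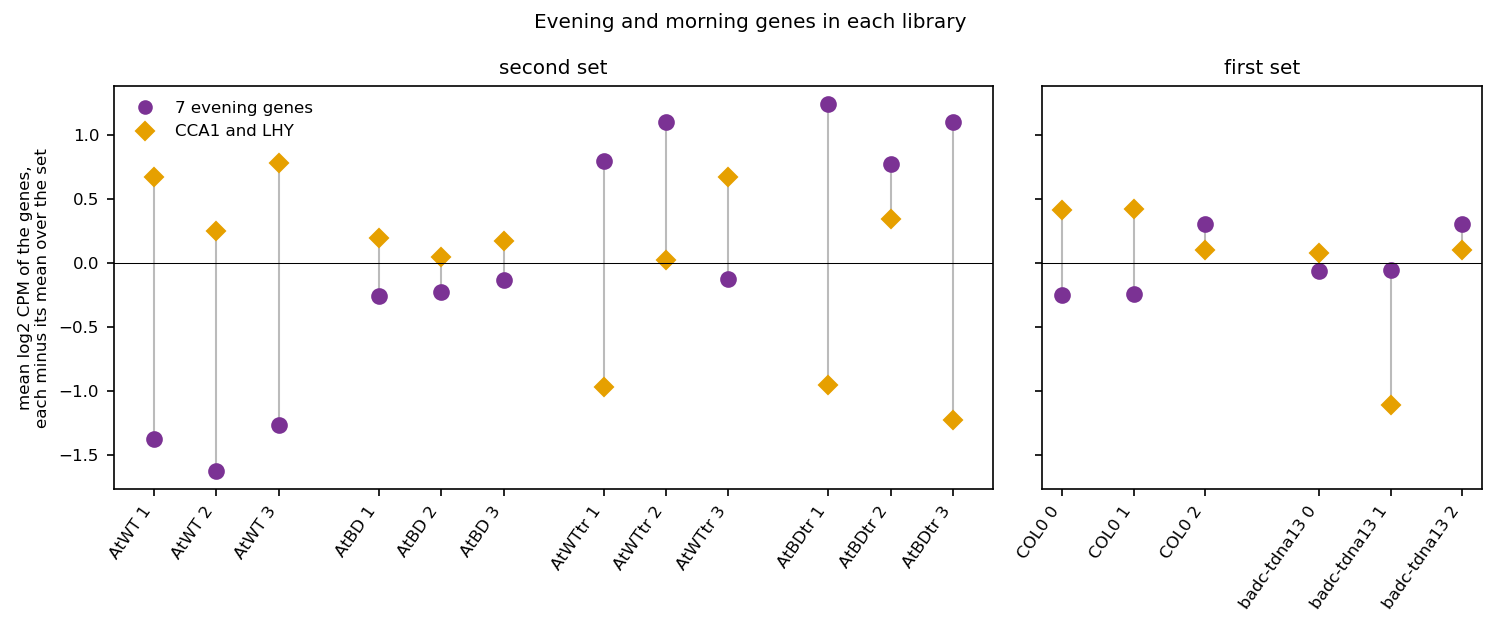
Mean centred log2 CPM (vertical axis) of the 7 evening genes and of CCA1 with LHY in each of the 12 libraries of the second set and the 6 of the first; each set was centred on its own. On this centred scale, which does not compare levels between genes, morning genes lie above evening genes in all AtWT and AtBD libraries. They also do so in AtWTtr replicate 3, and lie below them in the other tr libraries.

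In the first set, wild type and knockout seeds held far more evening than morning transcript. The deposited FPKM of the 3 COL0 libraries was 44.8, 34.4 and 51.2 for ELF4, 32.7, 31.2 and 33.1 for AT4G33980 and 30.3, 31.1 and 30.2 for JMJD5. TOC1 measured 11, 11.5 and 24.8 FPKM, PRR7 10.5, 10.9 and 20.5, FKF1 8.83, 10.9 and 19.1, GI 7.22, 7.83 and 13.2 and PRR5 6.93, 6.22 and 11.3. CCA1 stood at 1.07, 1.38 and 1.35 FPKM and LHY at 0.661, 0.606 and 0.474, below every evening gene in every library.

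The last COL0 value is the library shared with badc-tdna13, and for TOC1, PRR7, FKF1, GI and PRR5 it was the highest of the 3. Without it the COL0 means of FKF1 and TOC1 were 9.87 ± 1.5 and 11.3 ± 0.32 FPKM (SD, n = 2), and with it 12.9 ± 5.4 and 15.8 ± 7.8 (n = 3). In AtWT, by contrast, CCA1 had a higher mean RPKM than any evening gene. The sets were processed apart, so these levels stand side by side and their difference was not tested.

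None of the 10 genes passed the threshold between genotypes in the first set. By edgeR on 4 libraries 0 of 10 were called, with 1 at an unadjusted p under 0.05 and 0 by DESeq2, beside 10.3% of 18522 loci called. LHY was that gene, at 2.75 and 2.47 CPM in COL0 and 1.42 and 0.93 in badc-tdna13, a log2 difference of -1.16 (SE 0.39, adjusted p = 0.105 by edgeR). CCA1 was at 3.34 and 3.75 CPM in COL0 and 3.83 and 0.93 in badc-tdna13, so its value of -0.60 (SE 0.58) rested on 1 library and was 0.06 without badc-tdna13 replicate 1. FKF1 at 0.36 (SE 0.16), GI at 0.33 (SE 0.14), TOC1 at 0.36 (SE 0.19) and AT4G33980 at 0.29 (SE 0.19) lay above 0. The remaining evening genes were JMJD5 at 0.14 (SE 0.14), ELF4 at 0.03 (SE 0.24) and PRR5, which lay below 0 at -0.22 (SE 0.18). Without badc-tdna13 replicate 0, when the spread came from the 2 COL0 libraries alone and the lone badc-tdna13 library was assumed to vary like them, FKF1, GI, TOC1 and CCA1 were called, 4 of 10 beside 39.5% of all loci. Without badc-tdna13 replicate 1, under the same assumption, AT4G33980 was called, 1 of 10 beside 25.7% of all loci. Nothing about these genes is read from either count.

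The evening-minus-morning difference was -0.67 and -0.66 in the 2 unshared COL0 libraries, -0.14 and 1.05 in the unshared badc-tdna13 libraries and 0.21 in the shared one. The unshared libraries of badc-tdna13 lay above those of COL0. With all 6 libraries the group means were -0.37 ± 0.50 and 0.37 ± 0.61 (SD, n = 3), a gap of 0.75 against 1.12 without the shared library. The 1.05 belonged to badc-tdna13 replicate 1, with an evening mean of -0.05 and a morning mean of -1.11, where CCA1 and LHY had the low CPMs given above. On log2(FPKM + 1) the gap was smaller, with means in the unshared libraries of -0.37 in COL0 and 0.16 in badc-tdna13. In the unshared libraries the seed coat marker sum was 629 and 648 CPM in COL0 and 738 and 838 in badc-tdna13, with no overlap, and the embryo sum was 15527 and 15540 against 17149 and 12451. The silique wall sum was 121 and 109 CPM against 105 and 139, and the endosperm sum 5.31 and 8.04 against 18.2 and 5.61. Of 7 tested seed coat markers 1 rose and 2 fell, of 5 silique wall markers 1 rose and 1 fell, and the part of these differences was not tested.

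**Figure D4:**
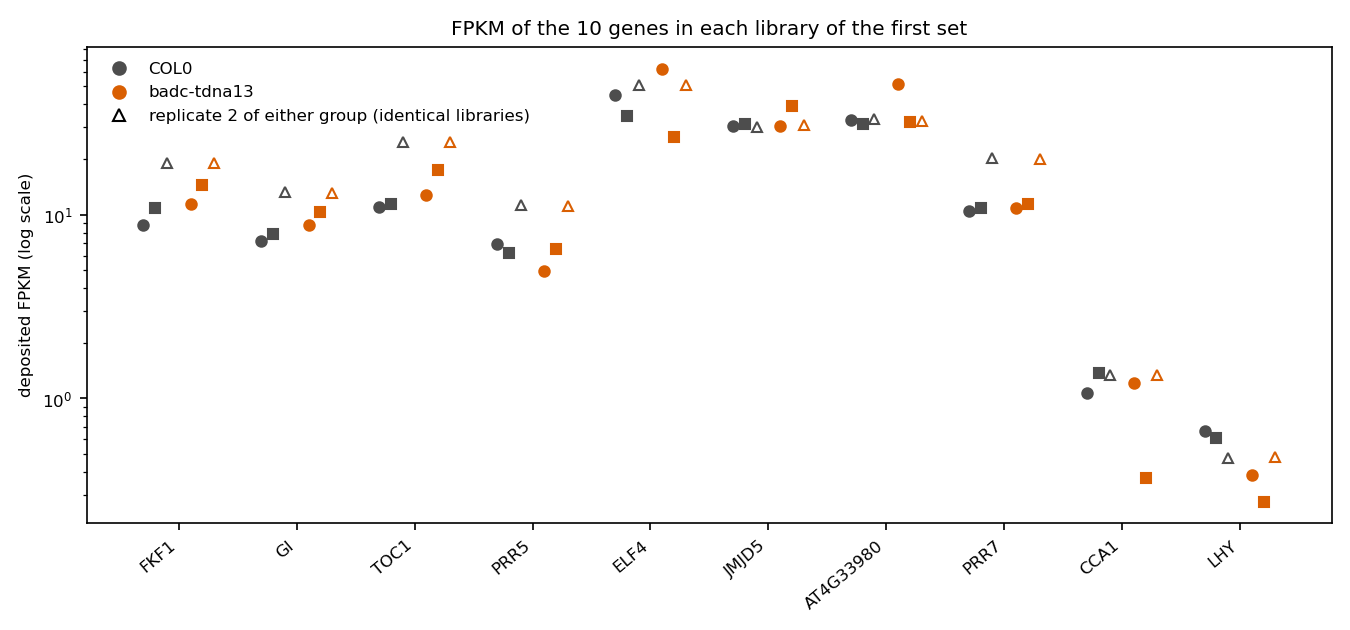
Deposited FPKM (log scale) of the 10 genes in each library of the first set, with open triangles for the identical libraries labelled replicate 2 in either group. CCA1 and LHY lie between 0.274 and 1.38 FPKM, and the other 8 genes lie at 4.93 FPKM or above.

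Other clock genes were read from a list of 38, of which 37 were tested in the second set and 28 in the first. In AtWTtr against AtWT, 11 rose and 5 fell by edgeR, with a median log2 fold change of 0.10 beside -0.04 for all genes. Of the 7 evening-phased genes on the list 5 rose and 0 fell, and of 18 tested morning-phased genes 2 rose and 5 fell, beside 15.1% of all genes called higher and 19.1% lower, so the morning-phased counts lay near the background. PRR3, which protects TOC1 from degradation, measured 4.29 to 5.52 CPM in AtWT and 27.3 to 63.6 in AtWTtr, a log2 difference of 3.15 (adjusted p = 5.21e-06). BOA, a close relative of the evening complex subunit LUX, rose by 2.18 (3.14e-05), COR27, an evening-phased cold-regulated gene, by 2.36 (6.69e-05) and CHE, a TCP factor that represses CCA1, by 1.25 (3.74e-04).

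With library totals alone 3 of the 7 evening-phased genes were higher and 1 lower, and 0 of the 18 morning-phased genes were higher and 10 lower, beside 2.26% of all genes higher and 52.7% lower. PRR3 at 2.21, COR27 at 1.47 and BOA at 1.23 were the 3 still higher, and CHE, at 0.29 (adjusted p = 0.318), was no longer called. The morning-phased genes that rose under the main scaling, named after their values were seen, were RVE8 at 1.29 (adjusted p = 0.00493) and AT5G52660 at 0.71 (adjusted p = 0.0164) by edgeR. RVE8 is a MYB factor that activates evening genes.

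In AtBDtr against AtBD, 10 of the 37 rose and 6 fell, with a median of 0.28 beside -0.03 for all genes. Of the evening-phased genes 5 of 7 rose and 0 fell, and of the morning-phased genes 4 of 18 rose and 4 fell, beside 12.8% of all genes called higher and 16.9% lower. TIC, a nuclear clock regulator, rose by 1.80 (adjusted p = 1.29e-04), PRR3 by 2.09 (1.81e-04) and BOA by 1.65 (3.98e-04), and COL2, a CONSTANS relative, fell by 2.47 (4.69e-04), by edgeR. With library totals alone 2 of 7 evening-phased genes were higher and 0 lower, and 0 of 18 morning-phased genes were higher and 8 lower, beside 2.19% of all genes higher and 38.2% lower. The tr comparisons of the genotypes share no library, but all 4 groups share one estimate of the spread.

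**Figure D5:**
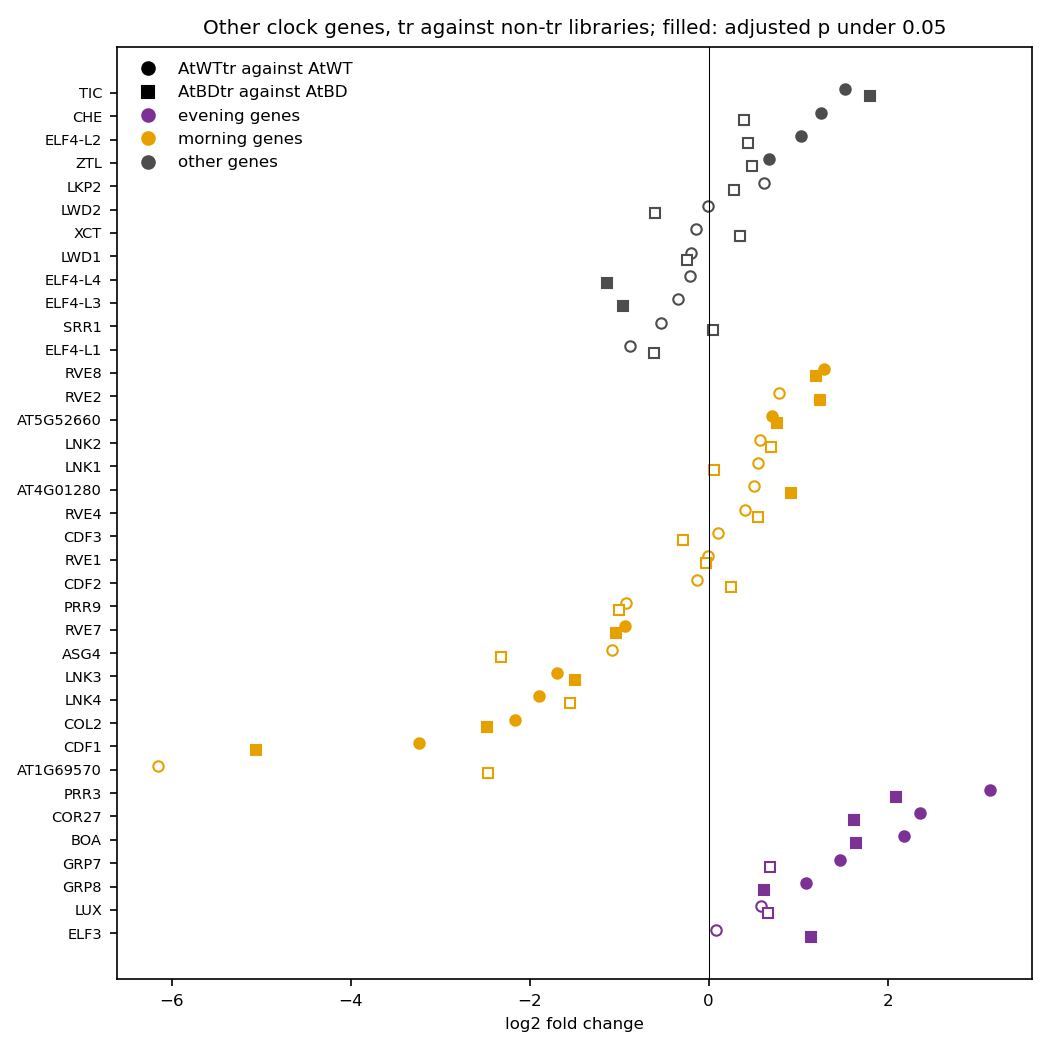
Log2 fold changes (horizontal axis) of 37 other clock genes in AtWTtr against AtWT (circles) and AtBDtr against AtBD (squares), coloured by phase; filled symbols have an adjusted p under 0.05 by edgeR. The evening-phased genes lie to the right of 0, from 0.08 for ELF3 to 3.15 for PRR3 (with library totals alone ELF3 at -0.90 and LUX at -0.39 fell below 0 in AtWTtr against AtWT), and the morning-phased genes lie on both sides.

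Between genotypes, 0 of the 37 were called in AtBD against AtWT by edgeR, with 7 at an unadjusted p under 0.05 and 0 by DESeq2. Of all 19376 genes 0.0568% were called there by edgeR, and 1195 had an unadjusted p under 0.05. The 7 evening-phased genes had a median log2 fold change of 0.72, with 6 above 0, and the 18 morning-phased genes one of -0.11, with 5 above 0, beside 0.00 for all genes. Of the evening-phased genes 4 of 7 lay higher with no overlap and 0 lower. Of the morning-phased genes 4 of 18 lay lower and 0 higher, beside 19.7% of all genes without overlap in either direction. In AtBDtr against AtWTtr 0 were called, with 4 at an unadjusted p under 0.05 and 0 by DESeq2, and in the interaction 0, with 3 and 0. Of all genes 0.0413% and 0% were called by edgeR in these contrasts, with 1007 and 805 at an unadjusted p under 0.05.

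In badc-tdna13 against COL0, 4 of 28 rose and 0 fell by edgeR: BOA by 0.89 (adjusted p = 0.0228), RVE8 by 0.99 (0.0297), ELF3 by 0.69 (0.0366) and LKP2, an FKF1 relative, by 0.82 (0.039), beside 5.23% of all loci called higher. With all 6 libraries, without COL0 replicate 0 and without COL0 replicate 1 no locus of the whole set was called by edgeR, with 1002, 2486 and 2219 at an unadjusted p under 0.05, so every first-set call named here was lost in those fits.

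Of 10 light input and photoperiod output genes, FT, the flowering signal downstream of FKF1 and GI, fell in both tr comparisons, by 2.30 (adjusted p = 6.97e-06) in AtWTtr against AtWT and by 2.71 (2.01e-06) in AtBDtr against AtBD, by edgeR. PIF5, a phytochrome-interacting factor, fell by 1.34 (0.0447) and 1.54 (0.0297), and HY5, a light-signalling bZIP factor, rose by 0.60 (0.0336) in AtWTtr against AtWT. Thus 1 of the 10 rose and 2 fell in AtWTtr against AtWT, beside 34.2% of all genes called in either direction. In AtBDtr against AtBD 0 rose and 2 fell, beside 29.7%, so neither count exceeded the background. FT and PIF5 stayed lower in both comparisons with library totals alone, at -3.26 and -2.26 and at -3.43 and -2.33, and HY5 turned to -0.32 without a call. In the first set CRY2, a blue-light receptor, rose by 1.20 (0.0348) and CO, the activator of FT, fell by 2.22 (0.043), calls lost with all 6 libraries or without either COL0 library. These were 2 of 10 called, beside 10.3% of all loci. Between AtBD and AtWT and between AtBDtr and AtWTtr 0 of the 10 were called by edgeR or DESeq2, with 0 at an unadjusted p under 0.05 in either. Of all genes 0.0568% and 0.0413% were called there by edgeR.

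Of 10 cold-response genes 7 were tested in the second set. In AtWTtr against AtWT 5 fell and 1 rose, and in AtBDtr against AtBD 5 fell and 0 rose, beside 19.1% and 16.9% of all genes called lower. Scaled by library totals alone, 5 were lower and 0 higher in each, beside 52.7% and 38.2% of all genes lower. COR47, a dehydrin, fell by 3.24 (adjusted p = 2.66e-07) and 2.42 (2.62e-06), and GOLS3, a galactinol synthase, by 4.12 (0.00474) and 4.55 (0.00241), by edgeR. KIN1 fell by 2.37 (1.44e-05) and 3.02 (2.22e-06) and KIN2 by 2.52 (7.67e-06) and 2.71 (4.64e-06), and since these 2 are near-identical copies, the split of reads between them is uncertain. In the first set 2 were tested and COR47 rose by 1.09 (0.0261), a call lost in the same 3 fits. Between AtBD and AtWT 0 of the 7 were called by edgeR or DESeq2, with 1 at an unadjusted p under 0.05, beside 0.0568% of all genes called by edgeR.

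Outside the clock, the genes whose log2 CPM followed the mean profile of the 7 evening genes most closely over the 12 libraries of the second set were AT3G57780 (Pearson r 0.986), IQD26 (0.984), AT5G02540 (0.979), AT1G78500 (0.974) and AT4G22730 (0.972). AT3G57780 had mean CPMs of 38.5 in AtWT, 58.5 in AtBD, 68.9 in AtWTtr and 82.7 in AtBDtr. Those closest to CCA1 and LHY were RGLG4 (0.913), COPT5 (0.885), AT1G65720 (0.884), AT3G17410 (0.860) and SRPK4 (0.852). These values are a description over libraries that share groups, depth and tissue make-up.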

How the data were processed

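PolyA RNA libraries of developing seeds were analysed from 18 samples in 6 groups of 3. Raw read counts per gene were deposited by the authors for the second set, equal in all 12 libraries to the unstranded column of the per-library count files. First-set FPKM values and the expected counts (estimated counts of fragments) come from a Cuffdiff output that the authors deposited, and the latter were rounded to whole numbers here. Per the submitters' processing notes TopHat, Cufflinks and Cuffdiff were used with TAIR10, without versions. Rows that name no gene held 5.93 to 25.8% of reads and were left out. Columns of other samples numbered 0.

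Counts were fitted per set with edgeR 4.0.16 (TMM factors, its filter on low counts, quasi-likelihood test, Benjamini-Hochberg adjustment) in R 4.3.3, one model over the 4 groups of the second set, and over 4 libraries of the first. DESeq2 1.42.0 and limma 3.58.1 (log2 of FPKM plus 1 or 0.1) were alternatives. The scripts were tested on simulated data. CPM used TMM-scaled totals, and RPKM the RefSeq exon length. Tests stayed within a set because the sets were processed apart.

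The members and gene lists were chosen with earlier results of these data known. All 10 members were named, as were up to 4 genes of each list with the smallest adjusted p among those past the threshold in each comparison, and the 5 genes with the highest Pearson correlation to each profile among tested genes whose mean log2 CPM reached 2. The scaling by library totals only was chosen after seeing the data.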

Additional observations from a re-analysis of the deposited data

How the results depend on the processing

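Counts of the 10 genes past the threshold moved in AtBD against AtWT from 1 to 4 by DESeq2, 4 with no filter on low counts, 5 with only the libraries compared and 0 with library totals only, and from 0 to 3 when leaving out each library. Nothing about the genes is read from these counts, because that contrast entered their choice. In AtBDtr against AtBD the count went from 7 to 2 with library totals only and from 5 to 8 when leaving out each library, and in AtWTtr against AtWT from 7 to 8. In the first set it went from 0 to between 0 and 4 when leaving out each library. Of the other clock genes, the AtBD against AtWT count went from 0 to 2 with only the libraries compared (COR27 and GRP7, which shares reads with its near-copy GRP8). The first-set count went from 4 to 0 with all 6 libraries, 0 on log2(FPKM + 0.1), 0 on log2(FPKM + 1), 2 with no filter, and 0 to 11 when leaving out each library. The evening-minus-morning gap of AtBD over AtWT, a description from genes chosen with that contrast in view, was 1.40 with PRR7 among the morning genes, against 1.64. The cause of these shifts was not tested.

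Directions reversed for TOC1 in AtBD against AtWT (-0.12 with library totals only, -0.057 to 0.30 when leaving out each library), PRR7 there (-0.035 to 0.59), PRR7 in AtWTtr against AtWT (-0.11 with library totals only), PRR5 in AtBDtr against AtBD (-0.62 with library totals only), LHY there (-0.98 to 0.017) CCA1 in the first set (-1.90 to 0.061) and FKF1 in AtBDtr against AtWTtr (-0.011 to 0.36). Further uncalled values near 0 also changed sign under some setting: AT4G33980, GI and LHY in AtBDtr against AtWTtr, ELF4 and PRR7 in the first set, and CCA1, LHY, PRR7 and TOC1 in the interaction.

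Replicate numbers did not pair the samples: correlations of same-numbered deviations ran from -0.277 to 0.0936. With a replicate block the 10 genes gave 1 call in AtBD against AtWT, 7 in AtBDtr against AtBD, 8 in AtWTtr against AtWT and 0 in AtBDtr against AtWTtr and in the interaction. No paired analysis was possible for the first set because its columns' numbers are not tied to titles.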
